A study of Mus with 8 samples.

Results

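Coenzyme A is the carrier of acyl groups in fatty acid oxidation and lipid synthesis, and 9 mouse genes of its supply are described here in brown adipose tissue, a heat-producing fat, taken from its interscapular depot. They are the vanins Vnn1 and Vnn3, the pantothenate kinase genes Pank1, Pank2, Pank3 and Pank4, and the genes of the later steps, Ppcs, Ppcdc and Coasy. The genes were chosen by name, with the difference between genotypes already seen in these data, so their differences are given as a description with no test. All 9 were measured, each by a single probe set, out of 30746 named genes.

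The arrays came from 4 mice labelled HILPDA KO and 4 labelled wild type, all of the C57BL/6 background and all labelled female, with 1 array per mouse. Hilpda encodes a small lipid droplet protein that inhibits adipose triglyceride lipase. The labels give no age, diet, housing temperature or treatment, and the sources used here do not give the part of the gene that was deleted or the cells that lost it. The question the comparison addresses is what the loss of Hilpda changes in brown fat.

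In cells, coenzyme A is built from pantothenate, vitamin B5. Pantothenate kinases phosphorylate it in the first and rate-limiting step, phosphopantothenoylcysteine synthetase adds cysteine, phosphopantothenoylcysteine decarboxylase removes a carboxyl group, and the bifunctional coenzyme A synthase completes the molecule. Vanins act outside the cell at the other end of the cycle: they split pantetheine, a breakdown product of coenzyme A, into pantothenate, which can be taken up again, and cysteamine, a precursor of taurine. Vnn1 is a known target of the nuclear receptor PPARalpha in liver, where fasting raises it.

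The arrays formed 2 sets that the labels do not name. Set 1 holds replicates 1 and 2 of both groups and set 2 replicates 3 and 4, and the median of all named genes was 3.92 to 3.99 in set 1 and 4.92 to 4.96 in set 2. Values are log2 expression values, and comparisons were made inside a set or with the set as a block. Hilpda itself read 4.45, 4.37, 5.60 and 5.51 in KO replicates 1 to 4, against 4.37, 4.28, 6.00 and 5.92 in wild type. Its difference, KO minus wild type, was 0.09 in set 1 and -0.40 in set 2 (over both sets -0.16, two-sided exact permutation within the sets p = 0.278, smallest possible 0.0556), so the level goes with the labels only in set 2. In what follows, KO stands for arrays labelled KO. The Y-linked gene Uty read 9.31 to 10.93 and Xist, the transcript of the inactive X, 3.49 to 4.10, which goes against the label of female mice on every array. The tissue label was borne out by Ucp1, the uncoupling protein of brown fat, which lay within 0.1 of the highest value on all 8 arrays. The liver transcript Alb, albumin, read 19.23 and 15.81 in KO against 14.51 and 10.03 in wild type of set 1, against 4.79 to 5.23 in set 2.

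Vnn1, a pantetheinase anchored to the cell membrane, was lower in KO in set 1 and higher in KO in set 2. In set 1 Vnn1 (gene 22361) read 7.46 and 6.74 in KO against 8.36 and 7.59 in wild type. In set 2 it read 9.84 and 9.91 in KO against 7.21 and 7.36 in wild type. The KO and wild type values did not overlap in either set, and the order of the genotypes was opposite in the sets.

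The Vnn1 difference was -0.88 in set 1 (pooled SD 0.53, n = 2 per group) and 2.59 in set 2 (pooled SD 0.08, n = 2 per group), the latter a 6.02-fold difference on a linear scale. Leaving out any array of the set gave 2.52 to 2.66 in set 2 and -1.26 to -0.49 in set 1, where the value was smallest without wild type replicate 1 (-0.49) and -0.52 without KO replicate 2. In set 2, 29 of the 30746 named genes (0.0943%) had a difference of at least that size in either direction, and in set 1, 370 genes (1.2%) did. Because the sets point in opposite directions, the value over both sets was 0.86 with a standard error of 0.65, and leaving out any 1 array gave 0.48 to 1.36. It was 0.48 without wild type replicate 3, 0.50 without KO replicate 4 and 1.36 without wild type replicate 1. A split of this kind, KO lower in set 1 and higher in set 2 with no overlap in either, was found in 7.39% of named genes. In bulk tissue, fewer cells of a type and less RNA per cell cannot be told apart.

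Vnn3, the neighbour of Vnn1 in the genome and the other functional mouse vanin, was near the level of background signal. It read 4.10 and 4.36 in KO against 4.21 and 4.13 in wild type of set 1, and 4.95 and 5.08 in KO against 4.80 and 4.43 in wild type of set 2. Vnn3 exceeded a background limit, the 95th percentile of the olfactory receptor genes of its array (3.79 to 4.84), on 7 of 8 arrays, and wild type replicate 4 was the exception. The genotypes overlapped in set 1, where the difference was 0.06, and the KO values lay above wild type in set 2, by 0.40 (pooled SD 0.20), which is a 1.32-fold difference. That value was 0.21 without wild type replicate 4 and 0.58 without wild type replicate 3. The other 8 members exceeded that limit on all 8 arrays.

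**Figure D1:**
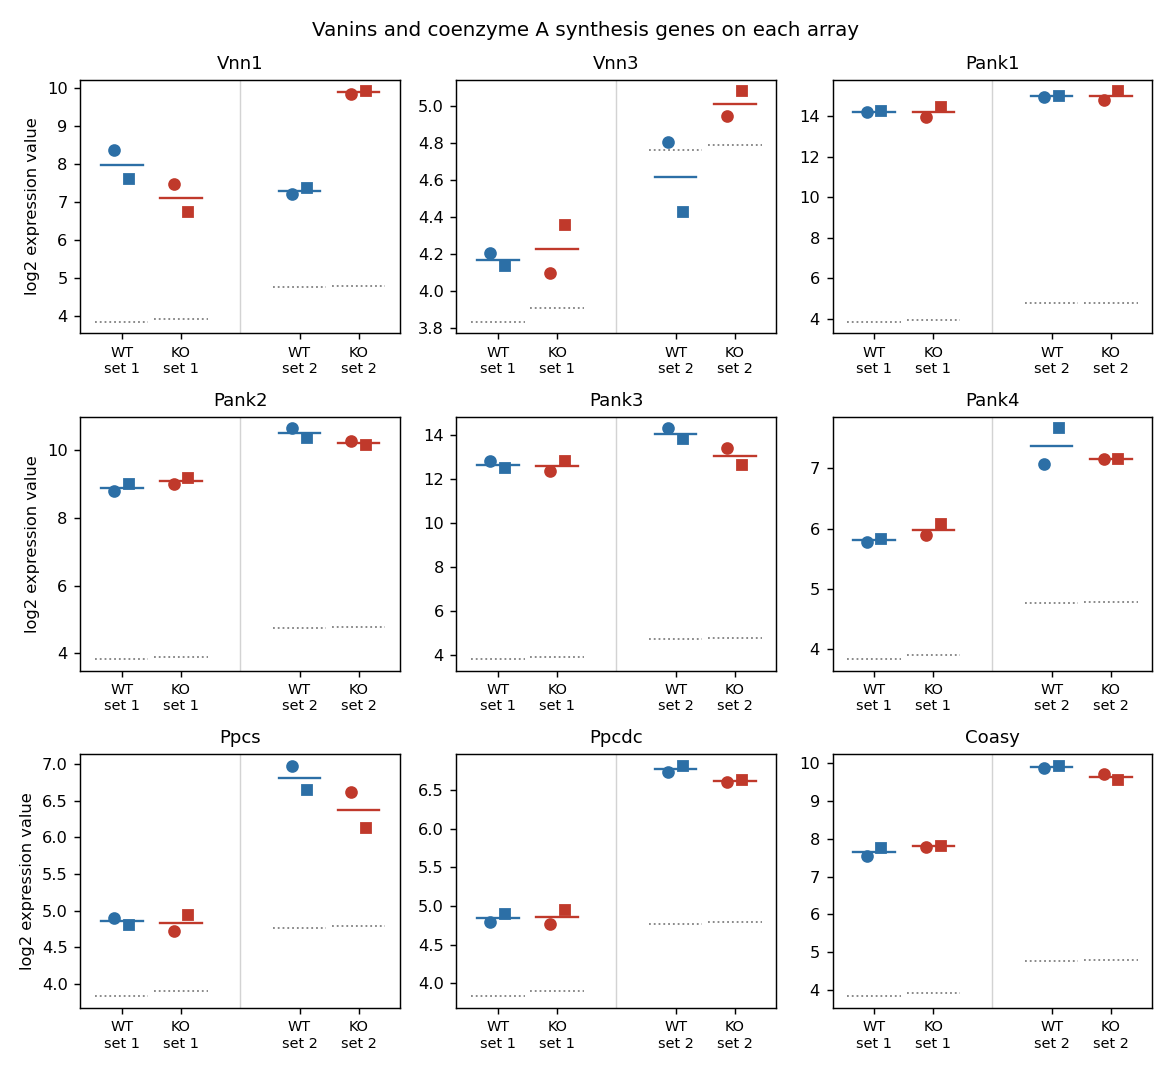
Log2 expression value of each of the 9 genes on each array, wild type blue and KO red, in set 1 (replicate 1 circles, replicate 2 squares) and set 2 (replicate 3 circles, replicate 4 squares). Bars are means of 2 arrays and dotted lines the mean 95th percentile of olfactory receptor genes, and the vertical axes differ between panels. Vnn1 parts the genotypes in opposite directions, at -0.88 in set 1 and 2.59 in set 2, while the Pank1 values overlap in both.

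Among the kinases, Pank1 overlapped between genotypes in both sets and Pank3 was lower in KO in set 2. Pank1 (gene 75735), whose product is the kinase best known from liver and from oxidative tissues, read 13.98 and 14.46 in KO against 14.19 and 14.28 in wild type of set 1. In set 2 it read 14.78 and 15.23 in KO against 14.97 and 15.02 in wild type. The KO values straddled the wild type values in both sets, with differences of -0.02 and 0.01. Quantile normalization gave Pank1 0.12 in set 1 and -0.28 in set 2, so its direction depends on the scaling.

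Pank3 (gene 211347) encodes a cytosolic kinase that acyl-coenzyme A inhibits. In set 1 it read 12.37 and 12.84 in KO against 12.81 and 12.51 in wild type, which overlap. In set 2 it read 13.43 and 12.63 in KO against 14.30 and 13.83 in wild type, so the KO values were the lower pair. The difference was -0.05 in set 1 and -1.03 in set 2 (pooled SD 0.46), a 2.05-fold lower mean level, and 502 of the named genes (1.63%) differed by at least as much in set 2. Its set 2 value was -0.64 without KO replicate 4 and -1.43 without KO replicate 3. Over both sets it was -0.54 (SE 0.27), and -0.29 without KO replicate 4. Quantile normalization turned the small set 1 value to 0.05 and gave -1.32 in set 2.

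Pank2 read 9.02 and 9.18 in KO against 8.80 and 9.0 in wild type of set 1, and 10.28 and 10.16 in KO against 10.65 and 10.37 in wild type of set 2. Its genotypes were parted in opposite directions, by 0.19 in set 1 (0.09 to 0.29 with an array left out) and -0.29 in set 2 (-0.43 to -0.15). Pank4, which lacks kinase activity and acts as a phosphatase on phosphopantetheine, differed by 0.18 in set 1, where the groups were parted, and by -0.21 in set 2, where they overlapped. With an array left out, Pank4 ran from 0.08 to 0.28 in set 1 and from -0.51 to 0.08 in set 2.

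The 3 genes of the later steps were lower in KO in set 2, and in set 1 Ppcs and Ppcdc overlapped while Coasy was higher in KO. Ppcs, the synthetase that adds cysteine, read 6.62 and 6.13 in KO against 6.98 and 6.64 in wild type of set 2, a difference of -0.44 (pooled SD 0.30). Leaving out KO replicate 4 reduced it to -0.19. Ppcdc, the decarboxylase, read 6.60 and 6.63 in KO against 6.73 and 6.82 in wild type there, a difference of -0.16 (pooled SD 0.04).

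Coasy, the bifunctional enzyme of the last steps, read 9.71 and 9.57 in KO against 9.88 and 9.94 in wild type of set 2, a difference of -0.27 (pooled SD 0.08). All of these set 2 differences are small, at 1.12-fold to 1.35-fold on a linear scale. In set 1 the values were 4.73 and 4.94 in KO against 4.91 and 4.81 in wild type for Ppcs, and 4.76 and 4.95 in KO against 4.80 and 4.89 in wild type for Ppcdc. The differences were -0.02 and 0.01, signs that scaling reverses (0.01 for Ppcs after quantile normalization and -0.03 for Ppcdc after median centring). Coasy read 7.78 and 7.82 in KO against 7.53 and 7.75 in wild type of set 1, with KO higher by 0.16, or 0.05 without wild type replicate 1 and 0.26 without wild type replicate 2.

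Counted over the 9 genes, the KO values lay wholly below wild type in set 2 for 5 (Pank2, Pank3, Ppcs, Ppcdc and Coasy) and wholly above for 2 (Vnn1 and Vnn3). Over all named genes the shares in set 2 were 19.1% below and 24% above. In set 1, 3 members lay wholly above (Pank2, Pank4 and Coasy) and Vnn1 wholly below, where the shares of all named genes were 18.9% and 19.4%. The median difference of the 9 was 0.01 in set 1 and -0.21 in set 2, beside 0.0037 and 0.017 for all named genes. Parting in both sets in opposite directions was seen for Vnn1, Pank2 and Coasy, and KO higher in set 1 and lower in set 2, as in Pank2 and Coasy, occurred in 5.28% of named genes. No member was parted in the same direction in both sets, which 5.31% of named genes were. These counts come from the contrast that was known when the genes were chosen.

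From set 1 to set 2 the other 8 members read higher in both genotypes, by 0.43 to 1.84 in KO and by 0.45 to 2.27 in wild type. Vnn1 was higher by 2.78 in KO and lower by 0.69 in wild type. The sets have different value distributions, so a change between them cannot be read as a change in transcript level.

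Genes of pantothenate and coenzyme A transport and of coenzyme A breakdown were examined beside the members. With the set as a block, limma called 1 of the 65483 genes and unnamed probe sets tested (0.00153%, Benjamini-Hochberg threshold 0.05), lower in KO and without a gene name here; a block on replicate number gave 0. Within set 1 it called 2 (0.00305%), both without a name here, and within set 2 it called 0 (0%; 8441 at an unadjusted p under 0.05, and 0 when set 2 was fitted alone). The difference between the sets was called for 38 (0.058%). None of the 7 measured genes of this list, and none of the other pathway and marker lists below, was among them. Rhou and Synm, named below for their likeness to Vnn1, were among the 38. Over both sets all 7 genes of the list lay below 0, with a median of -0.16 beside 0.0075 for all named genes. Within set 1 and within set 2, 5 lay below 0 and 2 above. Without wild type replicate 4 the counts over both sets were also 5 and 2. Slc5a6, the transporter that brings pantothenate and biotin into cells, read 6.03 and 6.45 in KO against 7.14 and 7.25 in wild type of set 1, a difference of -0.95 (SE 0.24, limma adjusted p = 0.55). In set 2, where its values were 8.53 and 7.92 in KO against 7.98 and 8.28 in wild type, the groups overlapped.

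Slc25a42, the carrier of coenzyme A into mitochondria, read 10.71 and 8.68 in KO against 11.51 and 10.79 in wild type of set 2, a difference of -1.46 (SE 0.59, limma adjusted p = 0.362). KO replicate 4 was its lowest array of that set. In set 1 Slc25a42 differed by -0.13, with 9.10 and 8.93 in KO against 9.27 and 9.03 in wild type. Nudt7 and Nudt19, the coenzyme A hydrolases of peroxisomes, differed over both sets by -0.25 (SE 0.17) and -0.10 (SE 0.10). Btd, biotinidase, an enzyme of the same protein family as the vanins, differed by 0.30 in set 1 and -0.40 in set 2, the reverse of Vnn1 (limma adjusted p = 0.28 for the difference between the sets).

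None of the 11 measured genes around cysteamine, cysteine, glutathione and taurine was called over both sets, 5 being above 0 and 6 below, with a median of -0.04. Cth, the cystathionine lyase that makes cysteine, was the only one of them parted in the same direction in both sets, higher in KO by 1.26 and 1.12 (over both sets 1.19, SE 0.44, limma adjusted p = 0.983). It read 8.29, 6.36, 6.21 and 7.60 in KO replicates 1 to 4, against 6.23, 5.90, 5.85 and 5.72 in wild type. The set 1 difference was 0.29 without KO replicate 1, the array with the highest Alb, and the set 2 difference was 0.43 without KO replicate 4. Gss, glutathione synthetase, differed by -0.18 (SE 0.09). The taurine transporter gene Slc6a6, chosen after its values were seen, read 13.32 and 12.69 in KO against 14.61 and 14.06 in wild type of set 2, a difference of -1.33 (SE 0.26, limma adjusted p = 0.134), and 0.36 in set 1.

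Gclc, the catalytic subunit for glutathione synthesis, and Cbs, which makes cystathionine, were chosen in the same way because their signs followed those of Vnn1. Gclc differed by -0.68 in set 1 and 0.54 in set 2, and Cbs by -0.43 and 0.93. The limma adjusted p for the difference between the sets was 0.137 for Gclc and 0.146 for Cbs. Ado, the cysteamine dioxygenase, read 5.82 to 6.23 on all 8 arrays. Cdo1, cysteine dioxygenase, was within 0.1 of the highest value on 6 arrays and could not be compared.

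**Figure D2:**
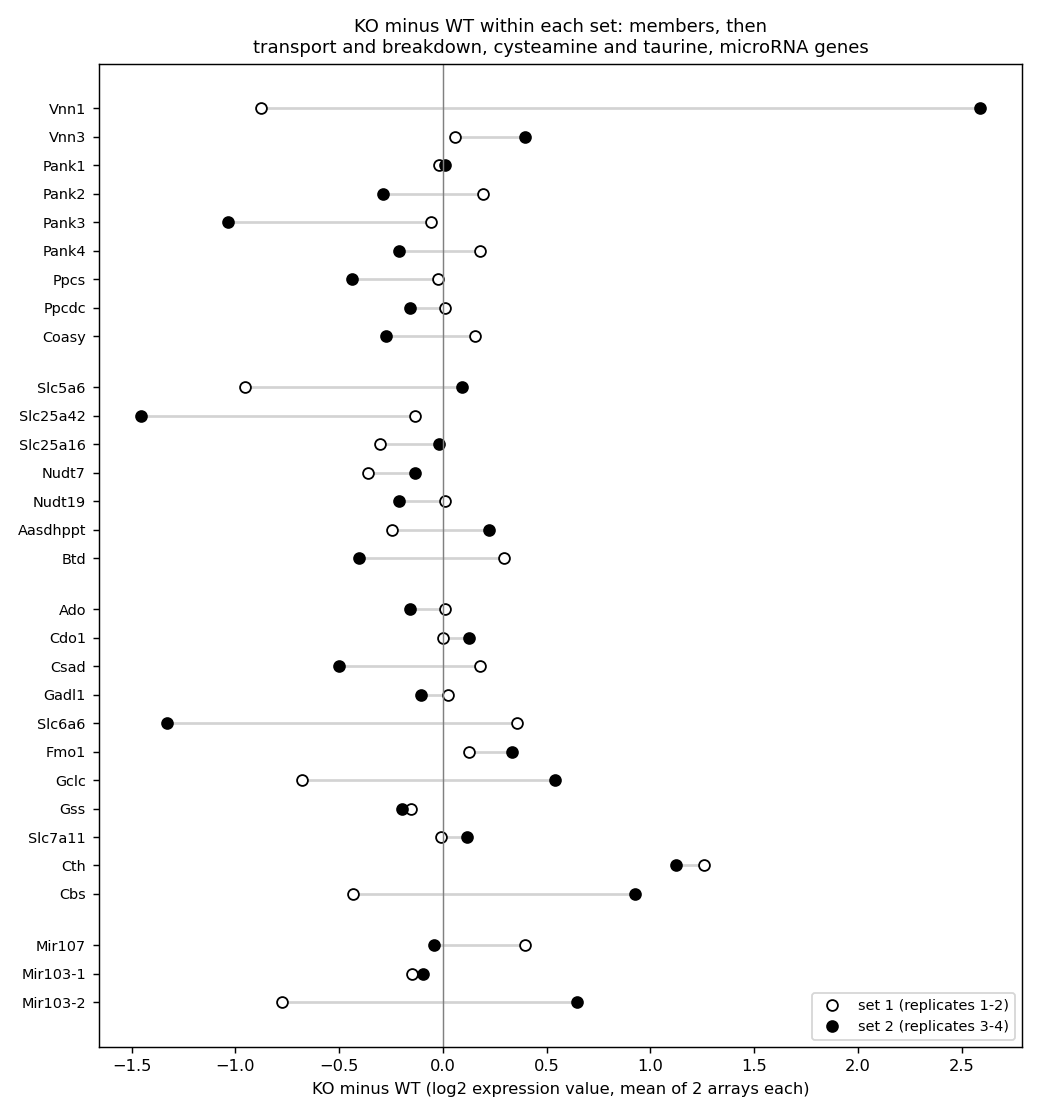
KO minus wild type in log2 expression value within set 1 (open circles) and set 2 (filled circles), each the difference of means of 2 arrays, for the 9 genes and, below them, the measured genes of transport and breakdown, of cysteamine and taurine, and the microRNA genes within the Pank genes. Vnn1 has the widest span of those drawn, from -0.88 to 2.59, and Cth lies to the right of 0 in both sets.

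Known PPARalpha targets were counted beside Vnn1. Of 15 measured genes of that list none was called, 8 lay above 0 and 7 below, and the median difference was 0.04. Without KO replicate 1, the array with the highest liver markers, 5 lay above 0 and 10 below (median -0.03), and without wild type replicate 2 it was 6 and 9. Pdk4 was within 0.1 of the highest value on all 8 arrays and Fgf21 was not above background on any, so both were left out of the counts by set. Of the other 13, 12 were above 0 in set 1 (10 without KO replicate 1) and 5 in set 2, with medians of 0.36 and -0.22. The part of liver RNA in these values was not tested. Ppara, which encodes the receptor, read 13.76 and 11.94 in KO against 14.26 and 13.92 in wild type of set 2, with differences of -0.38 in set 1 and -1.24 in set 2 (over both sets -0.81, SE 0.38, limma adjusted p = 0.983). The set 2 value was -0.33 without KO replicate 4 and -2.15 without KO replicate 3, and the set 1 value ran from -0.58 to -0.18.

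The fatty acid hydroxylases Cyp4a31, Cyp4a32 and Cyp4a14 were parted with KO higher in both sets, and Ppara was parted with KO lower in both. Parting in the same direction in both sets was found in 5.31% of named genes. Cyp4a31 differed by 1.18 and 1.95 and Cyp4a32 by 1.75 and 2.20, and neither of these passed (limma adjusted p = 0.983 for each). Cyp4a31 read 8.89, 7.20, 7.27 and 9.36 in KO replicates 1 to 4, and Cyp4a32 read 10.29, 7.98, 7.28 and 10.10. Without KO replicate 1 the set 1 differences were 0.34 and 0.59, and without KO replicate 4 the set 2 differences were 0.91 and 0.79. Cyp4a14 read 13.37 and 8.71 in KO against 5.01 and 4.96 in wild type of set 1, where Alb was also highest on KO replicate 1, and differed by 0.81 in set 2 (0.29 without KO replicate 4). Ppargc1a, the PPAR coactivator of thermogenesis and a gene of the brown adipocyte list, was singled out after its values were seen. It differed by -0.92 in set 1 and 1.35 in set 2, the same signs as Vnn1, with 15.72 and 15.40 in KO against 14.10 and 14.31 in wild type of set 2 (limma adjusted p = 0.269 for the difference between the sets). Its set 1 value was -0.25 without KO replicate 1 and -0.30 without wild type replicate 2. Other genes of that list, also chosen after their values were seen, split the sets as widely. Dio2, the deiodinase that activates thyroid hormone, differed by -4.63 and 2.02 (limma adjusted p = 0.0962 for the difference between the sets). The Dio2 values overlapped between genotypes in set 2, where the difference was 0.82 without KO replicate 3 and 3.21 without KO replicate 4. Otop1, a proton channel, and Plin1, a lipid droplet coat protein, had the opposite signs, 1.45 and -1.95 for Otop1 (limma adjusted p = 0.0599) and 0.67 and -1.91 for Plin1 (limma adjusted p = 0.156).

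Liver is a tissue with much Vnn1, and its markers varied between the arrays of set 1. The mean of 22 liver markers read 11.30 and 8.40 in KO against 8.12 and 6.55 in wild type of set 1, and 5.41 and 5.57 in KO against 5.40 and 5.36 in wild type of set 2. Of the 22, 6 exceeded the background limit on all 8 arrays. Among these, Cyp2e1 read 15.94 to 17.86 and Hp 15.08 to 15.76 in set 2, where Alb was near 5, so they do not follow Alb. The part of liver RNA in the Vnn1 values of set 1 was not tested. None of the 22 was called. Over both sets 21 were above 0 with a median of 1.5, which was 0.49 without KO replicate 1 and 0.85 without wild type replicate 2. The median was 2.75 in set 1 and 0.07 in set 2. Hpd and Tat, enzymes of tyrosine breakdown in liver, had the smallest p and differed by 1.60 (SE 0.56) and 2.31 (SE 1.05). In set 2 alone Hpd differed by 1.03 and Tat by -0.002.

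Skeletal muscle markers, averaged over 18 genes, read 5.71 and 10.76 in KO against 11.18 and 9.49 in wild type of set 2. In set 2 Pank3 was lowest on KO replicate 4, whose muscle mean was the second highest of the set. It was highest on wild type replicate 3, whose muscle mean was the highest. None was called. All 18 were below 0 over both sets, with a median of -1.17, but this direction rests on KO replicate 3, without which 11 were above 0 and 7 below (median 0.08). The median was -0.52 without wild type replicate 3, -0.75 without KO replicate 1, -1.98 without KO replicate 2 and -2.0 without KO replicate 4. Pgam2 and Mybpc1, genes of muscle glycolysis and of the sarcomere, differed by -0.42 and -1.42. The part of muscle RNA in the Pank3, Ppcs and Slc25a42 values was not tested.

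Brown adipocyte markers, averaged over 15 genes, read 13.58 and 13.84 in KO against 13.97 and 13.97 in wild type of set 1. In set 2 they read 15.01 and 14.57 in KO against 14.84 and 14.96 in wild type. The mean difference was -0.26 in set 1 and -0.11 in set 2, and 0.05 and -0.26 without Dio2, so that gene carried the set 1 value. None was called. Over both sets 12 of 15 lay below 0 with a median of -0.09, and without KO replicate 4 it was 9 below and 6 above (median -0.05). In set 1 alone 7 were above 0 and 7 below. The counts include Ucp1, which was within 0.1 of the highest value on all 8 arrays. Zic1 and Cox7a1, a transcription factor and a respiratory subunit typical of brown fat, differed by 0.43 (SE 0.15) and -0.17 (SE 0.09). KO replicate 4 had the lowest mean of these markers in set 2, but not every marker was low on it. Elovl3 (15.63) and Plin1 (13.63) had their lowest set 2 values there, while Zic1 (7.49) and Ebf2 (11.95) had their highest. KO replicate 4 was also the lowest array of that set for Pank2, Pank3, Ppcs, Coasy and Slc25a42. Without it the set 2 differences were -0.64 for Pank3, -0.19 for Ppcs, -0.23 for Pank2, -0.20 for Coasy and -0.44 for Slc25a42, which was -1.46 with it.

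Vanins are also known from myeloid cells. Of 12 neutrophil markers 7 were at or under the background limit on every array, among them Ngp, Mpo, myeloperoxidase, and S100a8, and only Cxcr2, a chemokine receptor, exceeded it on all 8. Cxcr2 differed by 0.14 over both sets, and none of the list was called. The 12 macrophage markers averaged 7.25 and 7.38 in KO against 6.99 and 7.19 in wild type of set 2, and 5.87 and 5.46 in KO against 5.76 and 5.49 in wild type of set 1, and none was called. C1qa, a complement subunit, and Cd14, the co-receptor for lipopolysaccharide, differed by 0.20 (SE 0.08) and 0.49 (SE 0.22). In set 2 the mean of macrophage markers differed by 0.22, that of all 12 neutrophil markers by 0.20 (0.06 without KO replicate 4), and Vnn1 by 2.59. Without the 7 neutrophil markers at background, the mean of the other 5 differed by 0.36 in set 2 (0.20 without KO replicate 4). In set 1 it differed by -0.08. The part of these cells in the Vnn1 value was not tested.

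**Figure D3:**
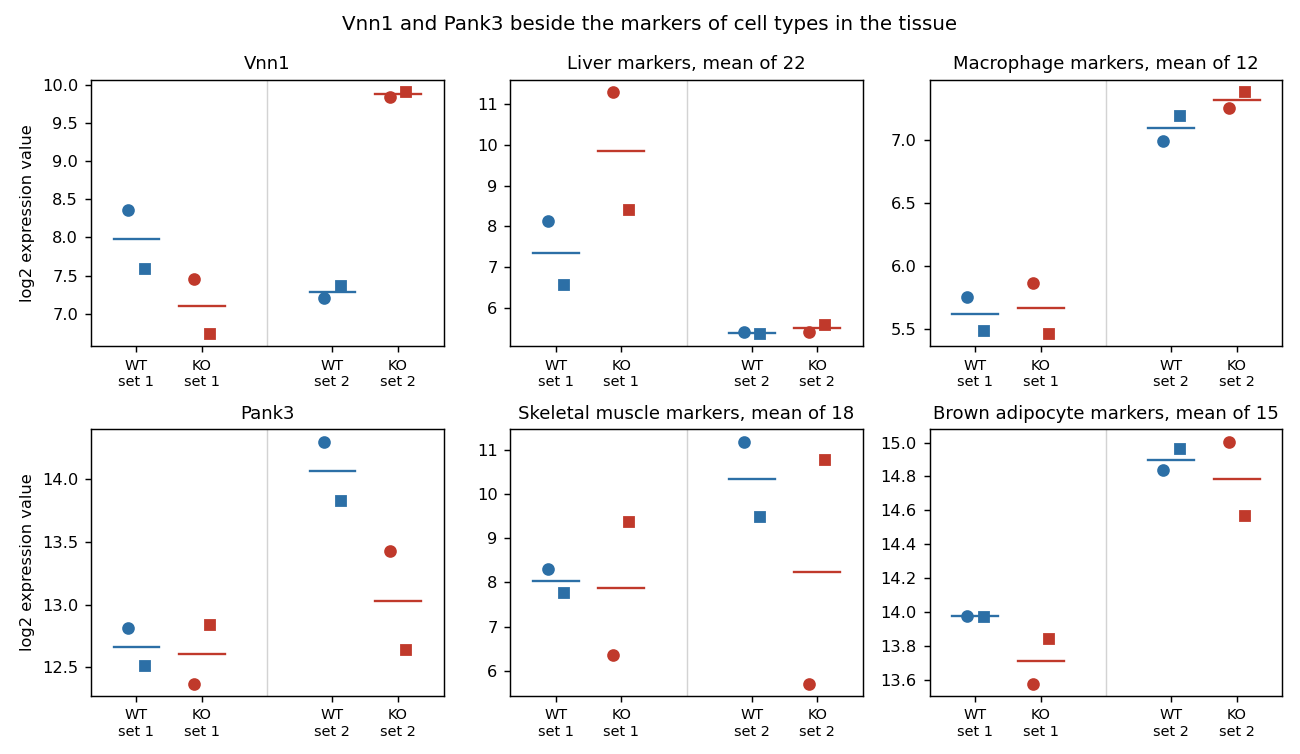
Vnn1 and Pank3 on each array beside the mean log2 value of the liver, macrophage, skeletal muscle and brown adipocyte markers, wild type in blue and KO in red, with bars for means of 2 arrays and vertical axes that differ between panels. Liver markers spread from 6.55 to 11.30 in set 1 and lie between 5.36 and 5.57 in set 2, and Pank3 is lowest in set 2 on KO replicate 4.

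The genes with the pattern nearest to Vnn1 were found by the root mean square difference of log2 values centred within each set over the 8 arrays, among genes above the median level. Vnn1 itself had a root mean square deviation of 1.0 from its set means. The 5 nearest were Rhou, a small GTPase (distance 0.34), Net1, a guanine nucleotide exchange factor (0.36), Plk3, a stress-responsive polo-like kinase (0.37), Apold1, an endothelial early-response gene (0.40), and Synm, the intermediate filament protein synemin (0.40). Rhou read 12.19 and 12.69 in KO against 10.09 and 10.34 in wild type of set 2, and 8.63 and 8.14 in KO against 9.28 and 9.64 in wild type of set 1. Their set 2 differences ran from 2.02 to 2.77 and their set 1 differences from -1.46 to -0.17. They were selected for this likeness, so the calls of Rhou and Synm for the difference between the sets are not a test of it.

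The same measure was taken for Vnn3 and Pank1. For Vnn3 the nearest were Ifit3 (distance 0.06), an interferon-induced gene, Klrb1f (0.08), a natural killer cell receptor gene, Mir7001 (0.08), Lipg (0.09), endothelial lipase, and Xrn2 (0.09), a nuclear exonuclease. Vnn3 deviated by 0.19 from its set means. For Pank1 they were Tpm3 (0.05), a tropomyosin, Vdac1 (0.07), the channel of the outer mitochondrial membrane, Svil (0.07), Calcoco1 (0.07) and Maco1 (0.07), against a deviation of Pank1 itself of 0.17.

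**Figure D4:**
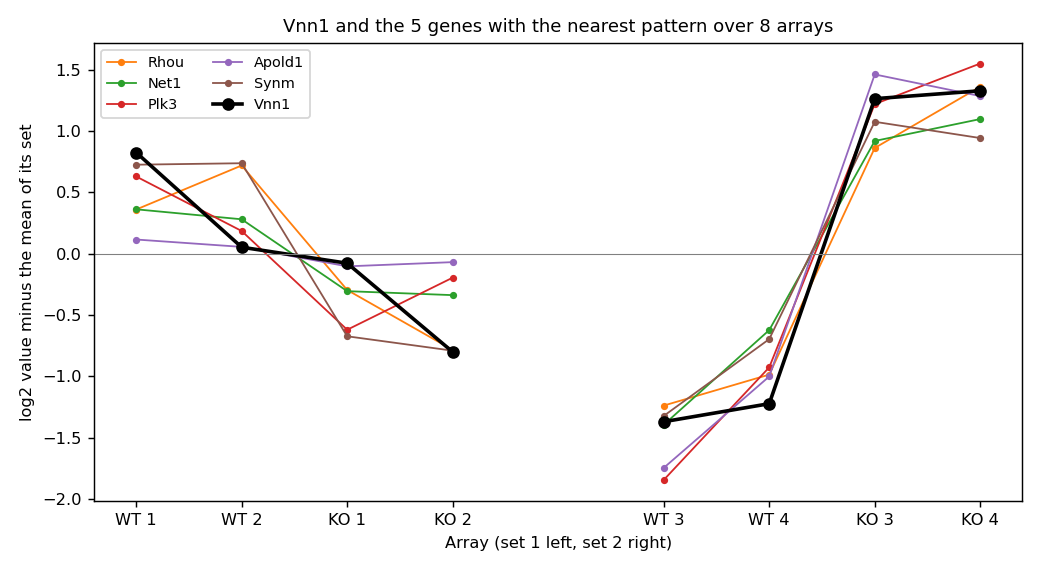
Log2 value minus the mean of its set for Vnn1 (black) and for the 5 genes nearest to it, on the 4 arrays of set 1 (left) and of set 2 (right). In set 2 all 6 lines are below 0 on both wild type arrays and above 0 on both KO arrays, and in set 1 they run the other way, with Apold1 nearly flat at a difference of -0.17.

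Mir107 lies within Pank1, Mir103-2 within Pank2 and Mir103-1 within Pank3 in the annotation. They encode miR-107 and miR-103, related microRNAs known for effects on insulin sensitivity and lipid metabolism. Each has a probe set for its hairpin, and how much of the unspliced host transcript that probe set reads is not known. Mir103-2 read 4.25 and 3.99 in KO against 4.80 and 4.99 in wild type of set 1, and 6.19 and 6.46 in KO against 5.67 and 5.69 in wild type of set 2. It was parted in opposite directions, by -0.78 (SE 0.15) and 0.65 (SE 0.15), and the limma adjusted p for the difference between the sets was 0.0671. Its host Pank2 had the opposite signs, 0.19 and -0.29.

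Mir107 overlapped between genotypes in both sets, at 5.02 and 4.23 in KO against 4.25 and 4.22 in wild type of set 1, and 5.03 and 5.19 in KO against 4.77 and 5.53 in wild type of set 2. Mir103-1 read 3.06 to 4.10 and did not exceed the background limit on any array, so its level was not above background. Over both sets the 3 microRNA genes differed by 0.18, -0.12 and -0.07 for Mir107, Mir103-1 and Mir103-2, and limma called none.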

How the data were processed

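Total RNA of 8 brown fat samples was hybridised to Affymetrix arrays. The deposited values are log2 expression values that the authors made by RMA in Affymetrix Expression Console, per the submitters' processing notes, with core-exon analysis, per the labels. The sources used here name no version or genome build. RMA brings the arrays of a run towards a shared distribution, and the 2 sets do not share one. The number of arrays limits the precision.

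The 65956 probe sets other than controls comprised 31219 with 1 gene symbol (615 after older symbols of a gene were merged), 1531 with several and 33206 unnamed here. Symbols were updated through RefSeq for 23433. The probe set with the highest mean represented a gene, and the 34737 others were tested unnamed. KO minus wild type was fitted with limma 3.58.1 in R 4.3.3 (lmFit, eBayes, no filter, Benjamini-Hochberg threshold 0.05) with the set as a block, since a fit without it carries the set difference in its spread. Differences within the sets came from 1 mean per genotype and set. The script was tested on simulated data.

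The members and lists were chosen with earlier results of these data known. Named were the members, Hilpda, Alb, Ppara, Cyp4a14, Slc5a6, Btd, Nudt7, Nudt19, the microRNA genes, the 2 genes of each list with the smallest p, and the 5 genes nearest to Vnn1, Vnn3 and Pank1, passing over predicted, olfactory and vomeronasal genes. Outside this rule, and chosen after their values were seen, stand Slc6a6, Gclc, Cbs, Ado, Cdo1, Ppargc1a, Dio2, Otop1, Plin1, Elovl3, Ebf2, Pdk4, Fgf21, Ucp1, Mpo, S100a8, Cyp2e1, Hp, Uty and Xist. Nudt8, Gclm, Cyp4a10, Serpina1a, Cyp2c29 and some other genes of the lists are not reported here.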

Additional observations from a re-analysis of the deposited data

Results flagged for a closer look

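Vnn1 was lower in all KO arrays of set 1 and higher in all KO arrays of set 2, with differences of -0.88 and 2.59. For Pank2 and Coasy the signs were the opposite, at 0.19 and -0.29 for Pank2 and at 0.16 and -0.27 for Coasy, whose set 1 value was 0.05 without wild type replicate 1. The difference between the sets was not tested for these 3, because the genes were chosen with the contrast known. Among the named genes Hpd, a liver enzyme, read 9.80 in KO replicate 1; its gap to the nearest of the other 3 KO arrays took up most of the range of the 4. It was the only such array among 68 groups of 4 examined. The limit used gives about 1 in 20 by chance for values of a single distribution. These groups span both sets, so that rate does not apply to them.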

How the results depend on the processing

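The count of called genes and probe sets, 1 with the set as a block, was 0 with no block (101 at an unadjusted p under 0.05 in limma), 0 with the replicate number as a block (2654) and 0 with a variance trend (3189), and 0 to 2 with an array left out (2 without wild type replicate 3, 0 without each other). In set 1 it went from 2 to 0 after quantile normalization, with a variance trend, with a filter on low values and when set 1 was fitted alone. The count of differences between the sets, 38, was 19 after quantile normalization and 16 with a variance trend. The cause was not tested. With an array left out, Btd ran from -0.15 to 0.10, Mir107 from -0.025 to 0.37 and Mir103-2 from -0.26 to 0.13, so their sign over both sets is not settled. In these alternatives no list gene of the report was called over both sets. Same-numbered arrays correlated at 0.70, 0.47, 0.48 and 0.61 in their deviations from group means over genes, but at 0.11, 0.11, -0.09 and -0.09 with the set removed, so the numbers are not shown to pair the mice. The within-set scaling and leave-one-out values, and those without Dio2 or without genes at background, were added after seeing the data. With 2 arrays per genotype in a set, each within-set difference rests on few mice, and Vnn3 and Mir103-1 are limited by signal near background.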
